A study of Mus musculus with 6 samples.

Results

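Interferon-induced effector genes were described in BV2, a mouse cell line immortalised from microglia, which are macrophages that live in the brain. The list has 50 genes, taken by name with no threshold on a value, and all 50 had a row among the 25032 genes with at least 1 read. Enough reads for a test were present for 48 of them, among 13199 tested genes in all. Poly(A)-selected RNA was sequenced in 3 libraries of cells overexpressing a TDP-43 protein mutated in its nuclear localisation signal, labelled TDP43-NLS, and in 3 libraries of cells overexpressing the fluorescent protein GFP. The title of the series places the work in the study of TDP-43 and of microglial necroptosis, a form of programmed cell death. Vector, promoter, duration of expression and clonality are not given in the labels, which name no treatment beyond the transgenes. The labels do not say that the libraries of a group came from separate cultures, so p-values here reflect spread among these samples alone, and it may be technical.

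Type I interferons bind the receptor of Ifnar1 and Ifnar2, whose kinases activate transcription factors that include Stat2. Stat2 works with Irf9 in a complex that binds the interferon-stimulated response element, the ISRE, in the promoters of many genes. The products of those genes block viral entry, translation, replication and release, and many of them act on RNA or on membranes. Interferon gamma acts at a different element, the GAS, and is the stronger inducer of the guanylate-binding proteins and immunity-related GTPases. In microglia the same genes are known as the interferon-responsive signature.

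Library totals ran from 15062131 to 18005592 reads. Mitochondrial genes took 1.42 to 1.65% of them. The lowest rank correlation between libraries of a group was 0.996 across genes. GFP replicate 2 stood apart from GFP replicates 1 and 3 on the second principal component (-16.3 against 8.93 and 7.40), which held 4.81% of the variance, against 87.5% for the first component, and results that change without it are given below. All 15 microglial markers looked up were tested and summed to 2880 to 2931 CPM (counts of reads scaled to the library's size) in TDP43-NLS libraries, against 2988 to 3051 CPM in GFP libraries. Of the 15, 5 were higher (33.3%) and 8 lower (53.3%), against 29.3% and 28.2% of all tested genes. P2ry12, Tmem119 and C1qa, which mark microglia of the brain, averaged 0.261 ± 0.0325, 3.79 ± 0.754 and 0.8003 ± 0.0670 CPM in TDP43-NLS libraries and 1.27 ± 0.288, 2.19 ± 0.187 and 1.23 ± 0.560 CPM in GFP libraries (SD, n = 3 each). P2ry12 passed the read filter through the GFP libraries alone, so a difference was built in. Of 28 markers of neurons, glia, T cells, fibroblasts, epithelium and endothelium, 16 had any read, and together they summed to 9.49 to 11.1 CPM in TDP43-NLS libraries against 5.92 to 7.98 CPM in GFP libraries. The defining markers Rbfox3, Snap25, Syt1, Aqp4, Mog, Cd3e, Cd8a, Col3a1, Dcn, Epcam, Krt8 and Krt18 had 0 reads in every library. Among the 6 tested markers of other cell types Tubb3, Pecam1 and Kdr were higher and Cd4 was lower. The first 3 passed the read filter through the TDP43-NLS libraries alone and Cd4 through the GFP libraries alone, so these differences were built in too. Their part in the results below was not tested.

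Tardbp, the gene of TDP-43, had 5671, 6506 and 6633 reads in TDP43-NLS libraries, against 7229, 7160 and 8154 reads in GFP libraries. It was lower (log2 fold change -0.26, SE 0.05, edgeR quasi-likelihood adjusted p = 0.000291). This count alone does not check the overexpression named in the label. The labels give neither the sequence nor the species of the transgene, so it cannot be said whether its reads enter this count. Directions below are therefore those of the libraries labelled TDP43-NLS over the libraries labelled GFP.

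To set the promoters beside the expression values, a stretch of 90 bases upstream of the RefSeq transcription start (build GRCm38.p6) is printed for 9 members. The results below turn on these members, which were picked with their values known and not as a sample of the list. The sequences run 5′ to 3′ on the gene's own strand. Capitals mark the core of the ISRE, GAAANNGAA, found on either strand, and cores that overlap run together. Where a gene had a core, its stretch was placed to hold the core nearest the start, so it need not reach the start. For Isg15 that core lay 57 bases before the start, and the printed stretch ends short of the start.
Isg15: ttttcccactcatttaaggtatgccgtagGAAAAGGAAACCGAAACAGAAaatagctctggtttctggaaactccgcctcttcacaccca
Ifit1: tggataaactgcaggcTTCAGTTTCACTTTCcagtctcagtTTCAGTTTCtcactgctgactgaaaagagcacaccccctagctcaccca
Oas3: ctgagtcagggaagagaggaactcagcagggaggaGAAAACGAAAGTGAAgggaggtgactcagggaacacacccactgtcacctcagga
Bst2: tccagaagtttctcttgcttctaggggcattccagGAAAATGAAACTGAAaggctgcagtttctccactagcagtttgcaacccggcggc
Gbp3: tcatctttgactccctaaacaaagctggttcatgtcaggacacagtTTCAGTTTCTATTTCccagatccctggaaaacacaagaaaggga
Slfn5: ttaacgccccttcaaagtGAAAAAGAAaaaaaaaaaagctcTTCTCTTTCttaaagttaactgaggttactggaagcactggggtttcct
Rsad2: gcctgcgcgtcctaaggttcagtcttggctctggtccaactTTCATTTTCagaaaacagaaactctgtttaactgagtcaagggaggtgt
Cmpk2: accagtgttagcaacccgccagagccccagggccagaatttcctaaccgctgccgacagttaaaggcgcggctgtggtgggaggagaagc
Trim30a: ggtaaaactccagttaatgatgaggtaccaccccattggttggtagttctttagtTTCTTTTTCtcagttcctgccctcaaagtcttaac
The stretches lie at chr4:156200836-156200925 for Isg15, chr19:34640764-34640853 for Ifit1, chr5:120777680-120777769 for Oas3, chr8:71537548-71537637 for Bst2 and chr3:142559954-142560043 for the first of the 2 Gbp3 starts. They lie at chr11:82951929-82952018 for Slfn5, chr12:26456523-26456612 for Rsad2, chr12:26469125-26469214 for Cmpk2 and chr7:104465194-104465283 for the Trim30a start that has a core. Ifit1, Gbp3, Slfn5 and Cmpk2 are on the plus strand, the other 5 on the minus strand.

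Isg15 and Ifit1 carried 3 cores each in these stretches, and Oas3, Bst2, Gbp3 and Slfn5 carried 2. Rsad2 and Trim30a carried 1, and Cmpk2 carried 0. The placing of the stretches fixed at least 1 core in advance for every gene but Cmpk2. The core nearest the start lay between 26 bases (Trim30a) and 123 bases (Slfn5) before it. These counts therefore come from unlike positions and are not compared between genes. RefSeq promoter windows of 300 bases, from 250 before to 50 after the start, were matched by symbol for 41 of the 50 members, and a gene counts when any of its windows holds the letters. The core was in a window of 23 of the 41 (56.1%), against 9.76% of 27025 genes with a window. A core followed directly by A was in 20 of the 41 (48.8%), against 3.99% of all genes. The letters TTCNNNGAA of the GAS, which read the same on both strands and can share bases with a core, were in 12 of the 41 (29.3%), against 9.55% of all genes. Ifit3 and Ifit3b, neighbours on chromosome 19, share an unbroken run of 169 bases of their 300-base windows. A match of letters is a description of the window and not of binding.

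In the libraries labelled TDP43-NLS most effector genes were higher than in GFP libraries, and a few were lower, among them Trim30a by 6.06-fold. Of the 48 tested members 31 rose (64.6%), against 29.3% of all tested genes. Another 6, Trim30a, Ifi44, Mx1, Cmpk2, Slfn8 and Oas2, fell (12.5%), against 28.2% of all tested genes, and 11 did not pass the test (two-sided edgeR quasi-likelihood test, adjusted p under 0.05 over all tested genes). The median log2 fold change was 0.39 over the 48 members and 0.0027 over all tested genes. The groups of libraries did not overlap for 38 of the 48 (79.2%), against 63.2% of all tested genes. Past a log2 fold change of 1, 7 members were higher (14.6%), against 6.33% of all tested genes, and 4 were lower (8.33%), against 3.67% of all tested genes. Of the members that rose or fell, 14 had changed by less than 0.5 on the log2 scale. Ifi44 enters the lower counts, although it passed the read filter through the GFP libraries alone. Without GFP replicate 2, 35 members rose and 7 fell, but calls grew over all genes too. There 4210 genes were higher and 4041 lower among 13450 tested, against 3865 and 3723 among 13199 with all libraries. In bulk RNA, more cells in a responding state and more RNA per cell cannot be told apart.

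**Figure D1:**
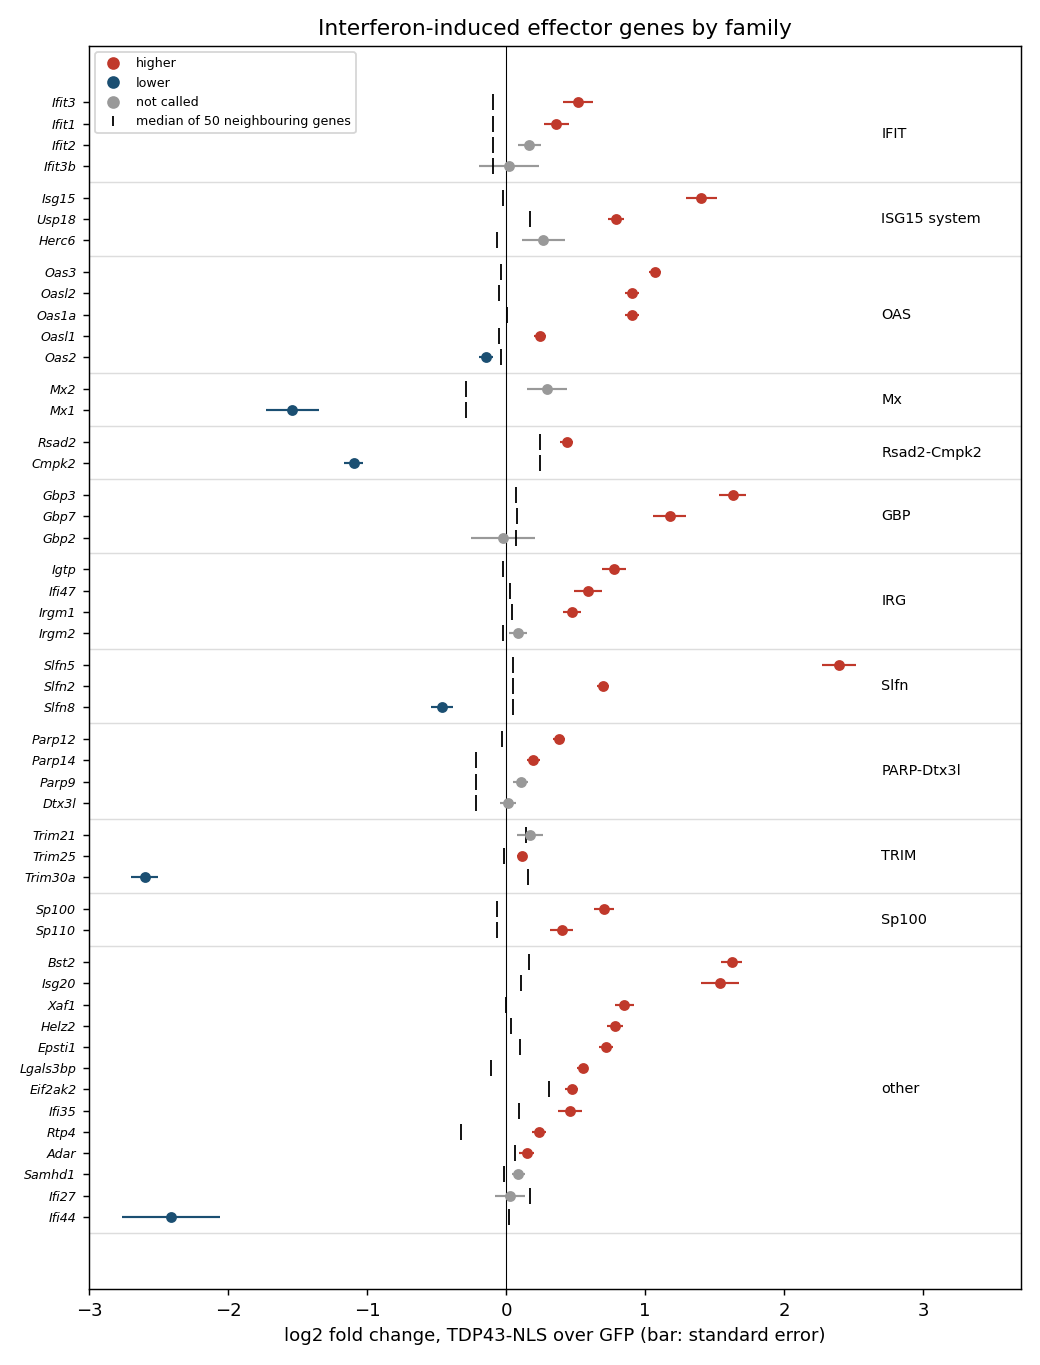
Log2 fold change of each tested member, TDP43-NLS over GFP, by family, with its standard error (3 libraries per group); red points rose, dark blue points fell and grey points did not pass the test, and the black tick is the median of the 50 nearest tested genes. Most points lie between 0 and 1, and Trim30a, Ifi44, Mx1 and Cmpk2 lie beyond -1. Ifi44 passed the read filter through the GFP libraries alone.

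The list's share of all reads was 0.390 to 0.398% in TDP43-NLS libraries, against 0.293 to 0.2997% in GFP libraries. Its summed level differed by 1072 CPM between the group means. A few abundant genes made up most of that: Bst2 alone gave 20.6%, Bst2, Helz2 and Oas3 together 41.3%, and with Lgals3bp, Slfn2 and Oas1a 60.7%. Members with a lower mean in TDP43-NLS libraries came to -58.2 CPM in all, and those with a higher mean to 1130.3 CPM.

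**Figure D2:**
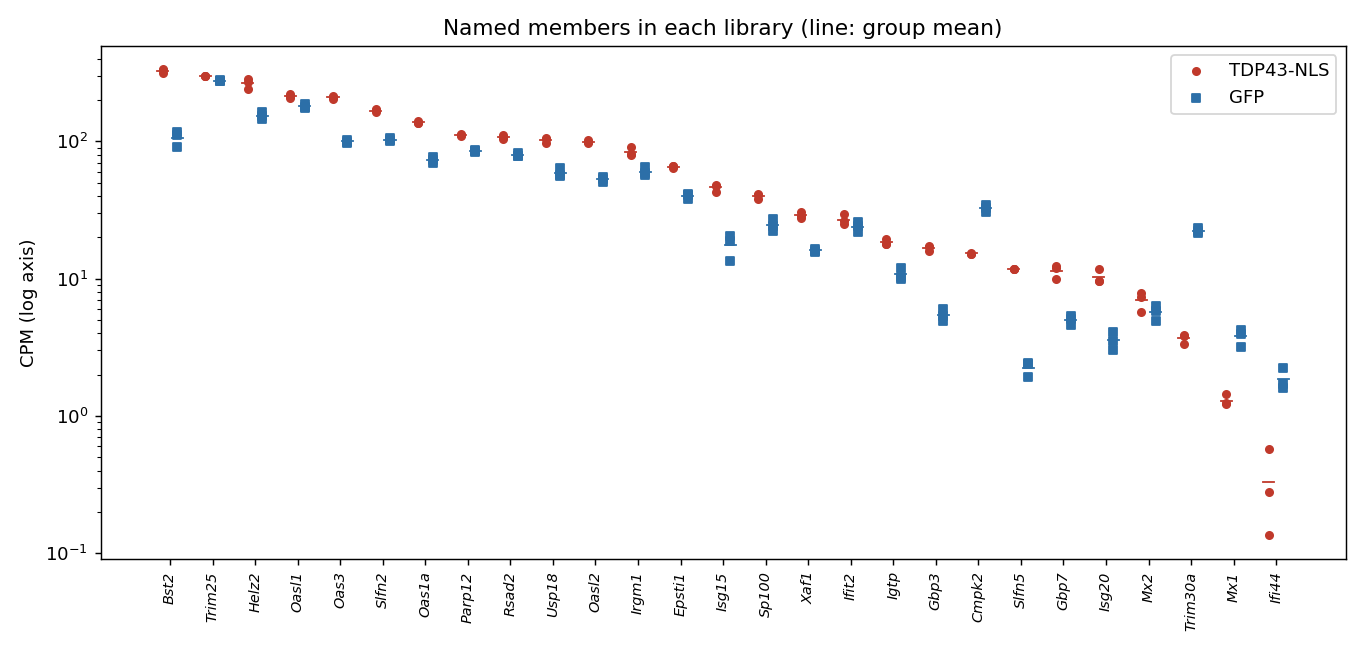
CPM (log axis) of 27 members in each library, ordered by level; red circles are TDP43-NLS libraries, blue squares GFP libraries, and lines are group means of 3 libraries. The groups are apart for all but Ifit2 and Mx2, and the Trim30a, Cmpk2, Mx1 and Ifi44 points of TDP43-NLS libraries lie under those of GFP libraries.

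The IFIT proteins bind viral RNA, with Ifit1 known for recognising 5′ ends that lack the methylation of host mRNA. Ifit1 and Ifit3 rose and Ifit2 and Ifit3b did not pass the test, so that none of the 4 changed by more than 0.52 on the log2 scale. Ifit2, the family's highest by FPKM (reads per length and depth), had 24.9, 29.5 and 26.1 CPM in TDP43-NLS libraries, against 25.7, 24.2 and 21.98 CPM in GFP libraries. The groups overlapped (log2 fold change 0.17, SE 0.08, edgeR adjusted p = 0.0908), and without GFP replicate 2 the value was 0.18 (adjusted p = 0.0477). Ifit3 was higher by 0.52 (SE 0.11, adjusted p = 0.00106) and Ifit1 by 0.36 (SE 0.09, adjusted p = 0.00354). Ifit3b held 69 reads over the TDP43-NLS libraries and 68 over the GFP libraries. Ifit3 and Ifit3b share 31.7% and 27.4% of the 100-base words of their transcripts (GENCODE M21) with each other, and it is not stated how reads that fit both were handled, so their split is uncertain.

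Isg15 is a ubiquitin-like protein that is attached to other proteins, Usp18 removes it and restrains signalling at the interferon receptor, and Herc6 is the ligase for it in mouse. Isg15 and Usp18 both rose. Isg15 had 42.8, 47.5 and 48.5 CPM in TDP43-NLS libraries, against 20.3, 13.5 and 18.8 CPM in GFP libraries. All 3 TDP43-NLS libraries were above the GFP libraries, a 2.65-fold difference (log2 fold change 1.40, SE 0.11, adjusted p = 1.64e-07). Usp18 had 105, 104 and 96.9 CPM in TDP43-NLS libraries, against 64.0, 56.7 and 56.4 CPM in GFP libraries. It was higher without overlap by 0.79 on the log2 scale (SE 0.06, adjusted p = 1e-07). Herc6 was at 0.27 (SE 0.15, adjusted p = 0.151), with overlapping groups.

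The OAS enzymes sense double-stranded RNA and make the oligoadenylates that activate the nuclease RNase L, while mouse Oasl1 restrains the translation of Irf7. All 5 members were called, 4 higher (80%) and 1 lower (20%), against 29.3% and 28.2% of all tested genes. Oas3 had 216, 212 and 202 CPM in TDP43-NLS libraries, against 99.8, 102 and 97.9 CPM in GFP libraries, without overlap (log2 fold change 1.07, SE 0.04, adjusted p = 2.84e-10). Oas1a had 141, 136 and 136 CPM in TDP43-NLS libraries, against 76.7, 69.9 and 73.5 CPM in GFP libraries (log2 fold change 0.91, SE 0.05, adjusted p = 3.48e-09). These groups were also apart, but 40.9% of the 100-base words of Oas1a transcripts also occur in Oas1g, so its count is uncertain. Oasl2 had 97.6, 102 and 98.2 CPM in TDP43-NLS libraries, against 55.4, 50.7 and 52.8 CPM in GFP libraries (log2 fold change 0.91, SE 0.05, adjusted p = 5.38e-09). Oasl1, the family's highest by FPKM, had 221, 213 and 206 CPM in TDP43-NLS libraries, against 178, 187 and 175 CPM in GFP libraries (log2 fold change 0.24, SE 0.04, adjusted p = 0.000368). Its rise was small, though the groups did not overlap. Oas2, next to Oas3 on chromosome 5, fell by 0.15 (SE 0.05, adjusted p = 0.0239). That call was lost without TDP43-NLS replicate 2 (adjusted p = 0.0735), TDP43-NLS replicate 3 (0.12), or GFP replicate 1 (0.0788), and after subtraction of the median of its 50 neighbours (0.0751). Its value stayed between -0.20 and -0.11 under all 16 alternative settings.

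The Mx proteins are dynamin-like GTPases that trap viral components, Mx1 in the nucleus and Mx2 in the cytoplasm of mouse cells. The deposited annotation lists both as polymorphic pseudogenes. Mx1 had 1.21, 1.23 and 1.44 CPM in TDP43-NLS libraries, against 4.24, 3.96 and 3.19 CPM in GFP libraries. It fell 2.90-fold without overlap (log2 fold change -1.54, SE 0.19, adjusted p = 1.24e-05). Mx2 had 7.34, 7.86 and 5.75 CPM in TDP43-NLS libraries, against 5.85, 6.32 and 4.90 CPM in GFP libraries, with overlapping groups (log2 fold change 0.30, SE 0.14, adjusted p = 0.0916). Mx2 passed the test without GFP replicate 2 (0.38, adjusted p = 0.0211) and without TDP43-NLS replicate 3 (0.43, adjusted p = 0.0215). Both genes lie on chromosome 16, where tested genes had a median log2 fold change of -0.24, and the 50 nearest genes had one of -0.29. After subtraction of the neighbours' median Mx1 was at -1.25 (adjusted p = 9.03e-05) and Mx2 at 0.58 (adjusted p = 0.00344).

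Rsad2, or viperin, makes a chain-terminating nucleotide that stops viral polymerases, and Cmpk2 is a mitochondrial kinase that makes nucleotide triphosphates. The 2 genes lie 12752 bases apart on chromosome 12 (chr12:26492745-26506451 and chr12:26519203-26529836, GRCm39), on opposite strands, and moved in opposite directions. Rsad2 had 109, 111 and 104 CPM in TDP43-NLS libraries, against 82.5, 77.7 and 78.9 CPM in GFP libraries. It was higher (log2 fold change 0.44, SE 0.05, adjusted p = 3.29e-06), and the median of the neighbouring genes there was 0.25. After its subtraction Rsad2 was at 0.19 (adjusted p = 0.00357). Cmpk2 had 15.2, 15.5 and 15.2 CPM in TDP43-NLS libraries, against 32.7, 34.5 and 30.8 CPM in GFP libraries. It fell 2.14-fold (log2 fold change -1.10, SE 0.07, adjusted p = 1.86e-08), and for both genes the groups were apart.

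Guanylate-binding proteins are large GTPases that coat pathogen vacuoles and bacteria, and the immunity-related GTPases Igtp, Irgm1, Irgm2, Iigp1 and Ifi47 act on the same membranes. Of 3 tested guanylate-binding protein genes 2 rose (66.7%), and of 4 tested immunity-related GTPase genes 3 rose (75%), against 29.3% of all tested genes. Gbp2 and Irgm2 did not pass the test. Gbp3 had 15.9, 17.4 and 17.1 CPM in TDP43-NLS libraries, against 4.95, 5.97 and 5.35 CPM in GFP libraries (log2 fold change 1.63, SE 0.10, adjusted p = 1.28e-08). Gbp7 had 12.3, 12.01 and 9.89 CPM in TDP43-NLS libraries, against 4.63, 5.38 and 5.07 CPM in GFP libraries (log2 fold change 1.18, SE 0.12, adjusted p = 2e-06). For both the groups were well apart, while 10.0% of the 100-base words of Gbp7 occur in other genes. Their neighbour Gbp2, a gene that interferon gamma induces strongly, was at -0.02 (SE 0.23, adjusted p = 0.945), with 63 and 64 reads over the TDP43-NLS and GFP libraries. Gbp5 was not tested, with 1, 4 and 3 reads in TDP43-NLS libraries and 1, 3 and 3 reads in GFP libraries.

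Among the immunity-related GTPases, Irgm1 was the highest by FPKM. It had 90.3, 79.1 and 81.5 CPM in TDP43-NLS libraries, against 59.0, 65.0 and 56.6 CPM in GFP libraries (log2 fold change 0.47, SE 0.06, adjusted p = 3.03e-05). Igtp had 17.9, 19.6 and 17.8 CPM in TDP43-NLS libraries, against 10.4, 11.9 and 10.0 CPM in GFP libraries (log2 fold change 0.78, SE 0.09, adjusted p = 6.26e-06). Neither pair of groups overlapped. Ifi47 rose by 0.59 (SE 0.10, adjusted p = 0.000233) and Irgm2 was at 0.09 (SE 0.07, adjusted p = 0.275). Igtp and Irgm2 overlap over 7974 bases on the same strand, so the share of reads given to each depends on the counting rule. Iigp1 was not tested, with 1, 5 and 2 reads in TDP43-NLS libraries and 3, 1 and 6 reads in GFP libraries.

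The Schlafen genes are best known for restraining growth and viral translation in immune cells. Slfn5 rose most of all 48 members. It had 11.9, 11.7 and 11.8 CPM in TDP43-NLS libraries, against 2.38, 2.42 and 1.94 CPM in GFP libraries, a 5.26-fold difference (log2 fold change 2.39, SE 0.12, adjusted p = 2.41e-09). Slfn2, the highest of the family by FPKM, had 171, 162 and 169 CPM in TDP43-NLS libraries, against 101, 106 and 103 CPM in GFP libraries (log2 fold change 0.70, SE 0.04, adjusted p = 1.67e-08). Slfn8, between them on chromosome 11 on the opposite strand, fell by 0.46 (SE 0.08, adjusted p = 0.000219). None of the 3 pairs of groups overlapped. Slfn8 shares 3.39% of its 100-base words with other genes, Slfn2 0.128% and Slfn5 0.238%.

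Parp12 and Parp14 transfer single ADP-ribose units to proteins, and Parp9 works with the ubiquitin ligase Dtx3l. Parp12 had 114, 112 and 109 CPM in TDP43-NLS libraries, against 84.3, 85.3 and 87.1 CPM in GFP libraries (log2 fold change 0.38, SE 0.04, adjusted p = 5.35e-06). Its groups were apart. Parp14 rose by 0.20 (SE 0.05, adjusted p = 0.00252). Parp9 was at 0.10 (SE 0.05, adjusted p = 0.0967), and at 0.14 without GFP replicate 2 (adjusted p = 0.0111). Dtx3l was at 0.01 (SE 0.06, adjusted p = 0.853). Parp9, Parp14 and Dtx3l lie close together on chromosome 16, among genes with a median of -0.21. After subtraction of that regional median Parp14 was at 0.41 (adjusted p = 5.92e-06), Parp9 at 0.32 (adjusted p = 0.000141) and Dtx3l at 0.23 (adjusted p = 0.00462). Parp9 and Dtx3l overlap by 682 bases on opposite strands, and no source says whether the counting used strand.

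TRIM proteins are ubiquitin ligases: Trim25 activates the RNA sensor RIG-I, Trim21 binds antibody-coated particles in the cytosol, and mouse Trim30a restrains Toll-like receptor signalling. Trim30a had the largest change of all members. It had 3.84, 3.37 and 3.85 CPM in TDP43-NLS libraries, against 22.1, 23.3 and 21.6 CPM in GFP libraries, 6.06-fold lower and without overlap (log2 fold change -2.60, SE 0.10, adjusted p = 1.15e-10). The median of its 50 neighbours was 0.15, and 4.41% of its 100-base words occur in Trim30d. Trim25, the most abundant TRIM member, had 301, 301 and 298 CPM in TDP43-NLS libraries, against 277, 275 and 279 CPM in GFP libraries. The groups were apart by a small step (log2 fold change 0.11, SE 0.04, adjusted p = 0.0195). That call was lost without TDP43-NLS replicate 2 (adjusted p = 0.0585), GFP replicate 1 (0.0591) or GFP replicate 3 (0.057), with DESeq2 (0.0627) and on log2(FPKM + 1) (0.0632). Trim21 was at 0.17 (SE 0.09, adjusted p = 0.136).

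Sp100 is a component of nuclear bodies that silences incoming viral DNA, and Sp110 is its relative. Both rose. Sp100 had 40.6, 38.0 and 41.4 CPM in TDP43-NLS libraries, against 22.3, 27.1 and 24.0 CPM in GFP libraries, without overlap (log2 fold change 0.71, SE 0.07, adjusted p = 2.58e-06). Sp110 rose by 0.40 (SE 0.08, adjusted p = 0.00105), and 17.5% of its 100-base words occur in other genes, so its count is less certain.

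Of the 13 remaining members 10 rose (76.9%) and Ifi44 fell (7.69%), against 29.3% and 28.2% of all tested genes. Ifi27 and Samhd1 did not pass the test. Bst2, or tetherin, holds budding virions at the cell surface and was the most abundant member by FPKM in TDP43-NLS libraries (358 ± 11.97 FPKM, against 119 ± 15.3 FPKM in GFP libraries, SD, n = 3 each). It had 336, 314 and 333 CPM in TDP43-NLS libraries, against 112, 90.8 and 117 CPM in GFP libraries (log2 fold change 1.62, SE 0.07, adjusted p = 9.12e-10). The lowest TDP43-NLS library was well above the highest GFP library. Isg20, an exonuclease that degrades RNA, had 9.57, 9.60 and 11.8 CPM in TDP43-NLS libraries, against 3.54, 3.01 and 4.10 CPM in GFP libraries (log2 fold change 1.54, SE 0.14, adjusted p = 7.12e-07). Xaf1, which binds the inhibitor of apoptosis XIAP, had 30.7, 28.6 and 27.8 CPM in TDP43-NLS libraries, against 15.95, 15.7 and 16.5 CPM in GFP libraries (log2 fold change 0.85, SE 0.07, adjusted p = 2.28e-07). Neither gene's groups overlapped. Helz2, a helicase-like transcriptional coactivator, had 283, 269.9 and 242 CPM in TDP43-NLS libraries, against 153, 163 and 146 CPM in GFP libraries (log2 fold change 0.78, SE 0.06, adjusted p = 1.4e-07). Epsti1 had 66.0, 66.5 and 64.3 CPM in TDP43-NLS libraries, against 37.8, 41.1 and 40.7 CPM in GFP libraries (log2 fold change 0.72, SE 0.05, adjusted p = 8.9e-08). Both were higher in all 3 TDP43-NLS libraries than in any GFP library.

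Ifi44 had 2, 5 and 10 reads in TDP43-NLS libraries, against 35, 29 and 28 reads in GFP libraries. It was tested only because the GFP libraries had enough reads, so a difference was built into its passing, and its log2 fold change of -2.41 (SE 0.35, adjusted p = 5.94e-05) is described without weight. The secreted galectin-binding protein Lgals3bp rose by 0.55. Eif2ak2, the kinase PKR that stops translation on double-stranded RNA, rose by 0.47, among neighbours with a median of 0.31. Ifi35 rose by 0.46 and Rtp4, a chaperone of membrane receptors, by 0.24. After subtraction of the regional median Eif2ak2 was at 0.16 (adjusted p = 0.0102) and Rtp4, among neighbours at -0.33, at 0.56 (adjusted p = 8.36e-07). Adar, the enzyme that edits adenosine in double-stranded RNA, rose by 0.15 (SE 0.05, adjusted p = 0.0285) with overlapping groups. Its call was lost without TDP43-NLS replicate 1 (adjusted p = 0.0709), TDP43-NLS replicate 2 (0.0572), GFP replicate 1 (0.105) or GFP replicate 3 (0.139), with DESeq2 (0.0588), on log2(FPKM + 1) (0.154) and after subtraction of the regional median (0.211). Samhd1, which depletes the nucleotides of DNA synthesis, was at 0.09 (SE 0.04, adjusted p = 0.11), and at 0.13 without GFP replicate 2 (adjusted p = 0.00217). Ifi27 had 177, 201 and 198 CPM in TDP43-NLS libraries, against 215, 146 and 206 CPM in GFP libraries, where replicate 2 was the low one (log2 fold change 0.03, SE 0.11, adjusted p = 0.851). Without GFP replicate 2 it was at -0.13 (adjusted p = 0.00846).

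Ratios within 7 pairs of neighbouring members, chosen after their values were seen because the members differed, were compared as log2 ratios of CPM, which are not scaled for gene length, so only their change between groups is read. The ratio of Slfn5 to Slfn8 averaged -0.52 ± 0.12 in TDP43-NLS libraries and -3.38 ± 0.11 in GFP libraries (SD, n = 3 each), a difference of 2.87. The ratio of Mx1 to Mx2 averaged -2.42 ± 0.37 in TDP43-NLS libraries and -0.59 ± 0.11 in GFP libraries, a difference of -1.84. The ratio of Gbp3 to Gbp2 averaged 3.75 ± 0.32 in TDP43-NLS libraries and 2.09 ± 0.05 in GFP libraries, a difference of 1.67. Each of these 3 pairs holds 1 called member and 1 that was called the other way or not at all. Rsad2 over Cmpk2 averaged 2.82 ± 0.03 in TDP43-NLS libraries and 1.29 ± 0.10 in GFP libraries, a difference of 1.53. Oas3 over Oas2 averaged 0.94 ± 0.01 in TDP43-NLS libraries and -0.27 ± 0.06 in GFP libraries, a difference of 1.22. Oasl2 over Oasl1 and Igtp over Irgm2 differed by 0.66 and 0.69. In all 7 pairs the groups did not overlap. The exact two-sided permutation p was 0.1 for each, the smallest that 3 against 3 libraries can give, and the pairs were picked on these values, so it carries no weight. Other relatives, such as Sp100 and Sp110 or Gbp3 and Gbp7, both rose.

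**Figure D3:**
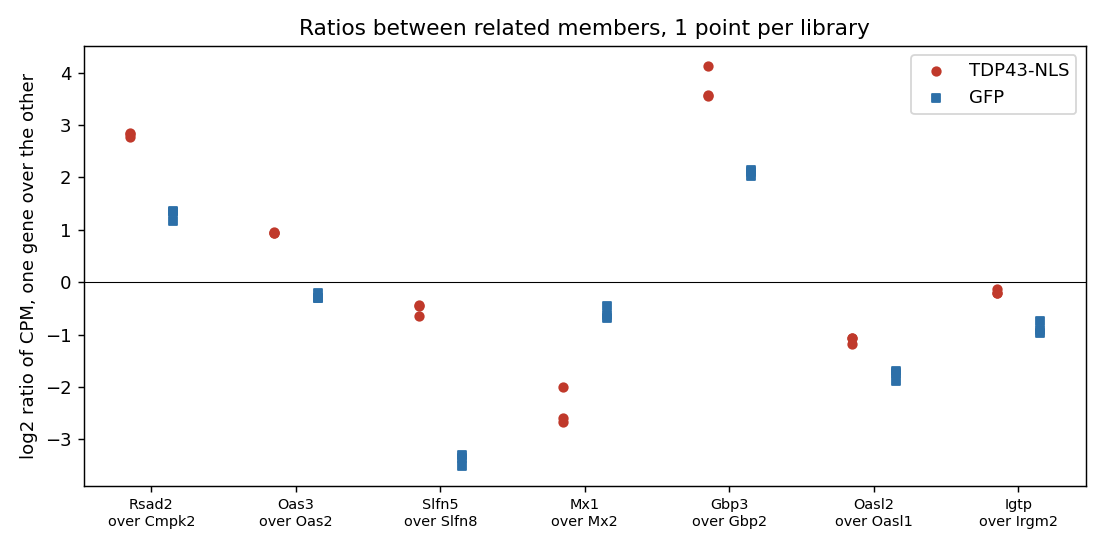
Log2 ratio of CPM between members of 7 neighbouring pairs, 1 point per library; red circles are TDP43-NLS libraries and blue squares GFP libraries. The 3 points of a group lie close together and apart from the other group, as for Rsad2 over Cmpk2 at 2.82 in TDP43-NLS libraries and 1.29 in GFP libraries.

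The ISRE core was in the windows of 15 of 28 members that rose (53.6%), of 3 of 4 that fell (75%), Ifi44 among the 3, and of 4 of 8 that were not called (50%). Trim30a, the member that fell most, had a core at 26 bases before its start, as the sequence above shows, while Cmpk2 had none in its window. Members with none in the window that rose ran from Oasl1 at 0.24 to Isg20 at 1.54. Between these were Xaf1, Oasl2, Helz2, Epsti1, Slfn2, Sp100, Ifi47, Lgals3bp, Ifi35, Sp110 and Parp12. The GAS letters were in the windows of 8 of 28 members that rose, of 0 of 4 that fell and of 3 of 8 that were not called. These are counts on few genes, with no test.

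Around the effectors, 55 other genes of the pathway were looked up, of which 46 were tested: 23 rose (50%), 11 fell (23.9%) and 12 did not pass the test, against 29.3% higher and 28.2% lower of all tested genes. Of the 7 ligand genes Ifnb1 had 4 reads over the TDP43-NLS libraries and 4 over the GFP libraries. Ifng, Ifna2, Ifna4, Ifne, Ifnl2 and Ifnl3 had 0 reads in every library. None of the 6 receptor genes rose and 4 fell (66.7%), against 29.3% higher and 28.2% lower of all tested genes. The receptor chains Ifnar1, Ifnar2, Ifngr2 and Il10rb fell, with log2 fold changes of -0.27, -0.43, -0.36 and -0.56, all on chromosome 16 among genes with a median of -0.29 to -0.28. After its subtraction they were at 0.01, -0.15, -0.08 and -0.27. The kinases Jak1 and Jak2 each rose by 0.24, and Tyk2 was at -0.05 (adjusted p = 0.494). Tyk2 lies on chromosome 9 among neighbours with a median of -0.65, and was at 0.60 after subtraction of that median.

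Of the transducers, Stat2 rose, with 47.1 ± 2.30 CPM in TDP43-NLS libraries and 31.5 ± 3.20 CPM in GFP libraries (SD, n = 3 each, log2 fold change 0.59, adjusted p = 1.27e-05). Irf9, itself induced by interferon in most cells, was at 0.08 (adjusted p = 0.191). Irf7, the factor that amplifies the response, had 181, 178 and 172 CPM in TDP43-NLS libraries, against 66.7, 62.2 and 65.1 CPM in GFP libraries, with the groups far apart (log2 fold change 1.45, SE 0.05, adjusted p = 2.75e-11). Of the 8 regulators 3 rose (37.5%) and 2 fell (25%), against 29.3% higher and 28.2% lower of all tested genes. Nlrc5, the activator of class I genes, rose by 0.71 and Irf3 by 0.44, Irf8 and Batf2 were at -0.21 and -2.33, while Irf1 was at -0.12 (adjusted p = 0.196). Batf2, with 5, 6 and 3 reads in TDP43-NLS libraries and 18, 27 and 27 reads in GFP libraries, passed the read filter through the GFP libraries alone, so a difference was built in. Of 6 feedback genes 2 rose (33.3%) and 2 fell (33.3%), close to the 29.3% and 28.2% of all tested genes. Socs3, a feedback inhibitor of cytokine receptors and 1 of the 2 that rose, was higher by 1.67.

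Of 7 tested sensors that detect nucleic acid upstream of interferon, 3 rose (42.9%) and 3 fell (42.9%). Of all tested genes 29.3% were higher and 28.2% lower. Rigi (named Ddx58 in the files) and Dhx58, both helicases of the same family as Ifih1, each rose by 0.75. Tlr9 rose by 0.34, and Tlr3 did not pass the test (adjusted p = 0.0589). Cgas, the sensor of cytosolic DNA, was lower at -0.70 among neighbours at -0.35, and Tlr7 was lower at -0.25. Ifih1, or MDA5, had 1.35, 0.954 and 1.09 CPM in TDP43-NLS libraries, against 12.1, 10.4 and 10.99 CPM in GFP libraries. It fell 9.89-fold without overlap (log2 fold change -3.31, SE 0.15, adjusted p = 1.05e-09), among neighbours with a median of -0.01. Zbp1, an induced sensor that can start necroptosis, was not tested, with 0, 1 and 0 reads in TDP43-NLS libraries and 0, 2 and 3 reads in GFP libraries. The 4 adaptors and kinases downstream of the sensors, Mavs, Sting1, Tbk1 and Ikbke, rose by 0.24, 0.22, 0.20 and 0.96. Of 9 other induced genes with a read 7 rose (77.8%), against 29.3% of all tested genes. Ifitm3, Cxcl10 and Ccl5 were higher by 3.80, 0.94 and 0.75, whereas Cxcl9 had 0 reads in every library.

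**Figure D4:**
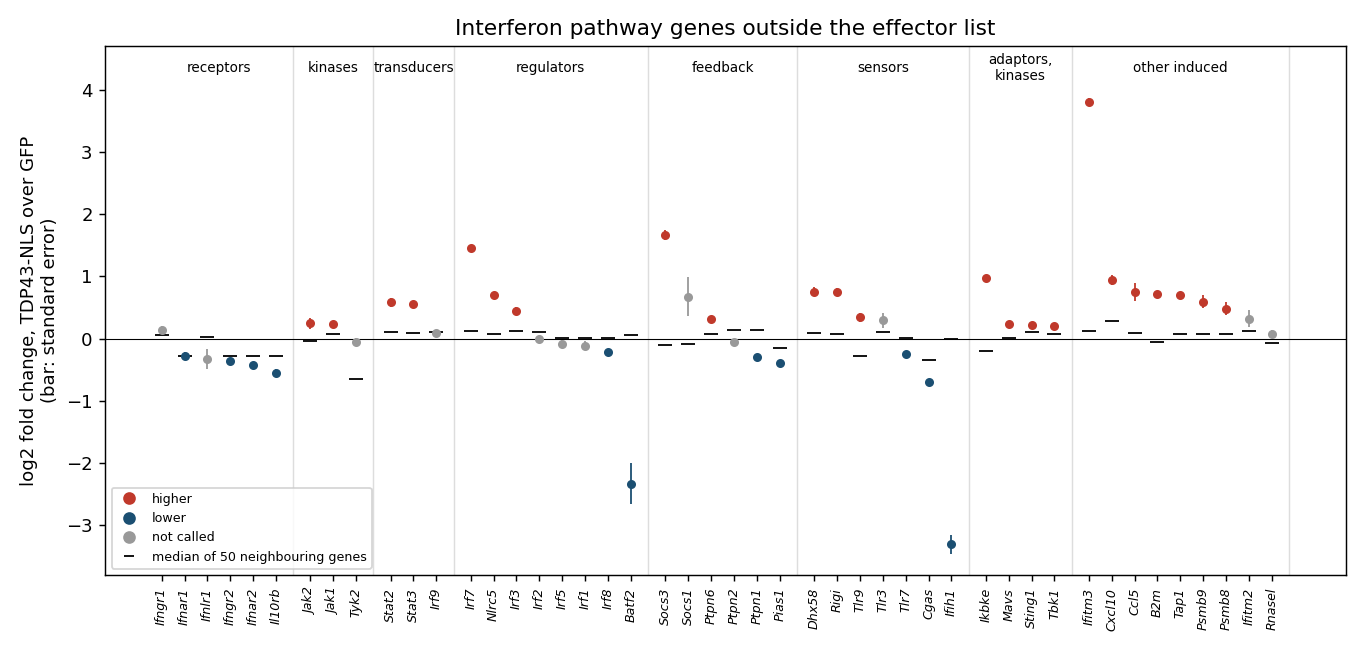
Log2 fold change, TDP43-NLS over GFP, of the 46 tested pathway genes outside the effector list, by role, with standard errors; red points rose, dark blue points fell, grey points did not pass the test, and the black tick is the median of the 50 nearest tested genes. Ifitm3 is highest at 3.80 and Ifih1 lowest at -3.31. Of the 6 receptor genes 4 are lower (66.7%), against 28.2% of all tested genes.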

How the data were processed

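Counts and FPKM were the deposited units. Reads per gene, as whole numbers, were deposited for 55359 genes in 6 libraries (0 rows name no gene). The authors' FPKM, scaled by length and depth, cover the 25032 genes with a read, with positions on GRCm39. HISAT2 2.1.0, HTSeq 0.6.0 and Bowtie2 2.2.3 are named in the submitters' processing notes, with no roles. The labels' protocols describe a library kit with no strand-marking step. How reads that fit several genes were treated, and whether strand was used, is not given in the sources at hand.

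Counts were tested with edgeR 4.0.16 in R 4.3.3, 3 libraries against 3. Genes passed filterByExpr (10 reads, 15 in total), TMM scaled the libraries, and the quasi-likelihood test was two-sided with the group as its only term. Adjusted p-values (Benjamini-Hochberg over 13199 genes) under 0.05 are calls, and "rose" and "fell" are used of calls alone. The standard error is the log2 fold change divided by the square root of F. CPM are TMM-scaled. Depth ran from 15062131 to 18005592 reads per library, so values near 1 CPM rest on few reads. Regional medians use the 50 nearest tested genes above an average log2 CPM of 3, members left out.

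The 50 members and the other lists were chosen with earlier results of these data known. Values per library are given for members that fell by at least 0.5 (log2), for the 20 called members with the largest change and a mean of at least 1 CPM, and for each family's most abundant tested member by FPKM. The closing part gives 16 alternative settings, with DESeq2 1.42.0 and limma 3.58.1 among them. Promoter sequences are RefSeq's (GRCm38.p6), and shared 100-base words were counted in GENCODE M21 transcripts. Of the pathway genes looked up, 1 is not reported here.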

Additional observations from a re-analysis of the deposited data

How the results depend on the processing

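The members that rose numbered 29 to 35 and those that fell 5 to 7 in every setting other than the test against a log2 fold change of 0.5. Against that threshold 16 members were higher and 4 lower, with 1221 genes higher and 744 lower in all. Calls over all genes moved with the setting as well. In all, 4210 genes were higher and 4041 lower without GFP replicate 2, and 3200 and 3114 with DESeq2, against 3865 and 3723 in the main fit. The median log2 fold change of the members was 0.36 on log2(FPKM + 1), 0.31 without a filter on low FPKM, 0.44 after subtracting chromosome medians, 0.42 after subtracting regional medians, and 0.38 to 0.43 when 1 library was left out (highest without TDP43-NLS replicate 3). Signs turned for 4 uncalled members. Ifit3b was at -0.00265, -0.00897 and -0.00265, and Dtx3l at -0.0191, -0.0209 and -0.0191, on log2(FPKM + 1), on log2(FPKM + 0.1) and without an FPKM filter. With 1 library left out Ifit3b ran from -0.0498 to 0.153, Dtx3l from -0.0271 to 0.0617, Ifi27 from -0.13 to 0.13 and Gbp2 from -0.15 to 0.15. Ifi27 was at -0.14 and -0.15 after subtracting chromosome and regional medians, and Ifit2, Mx2, Parp9 and Dtx3l then passed as higher, while Adar lost its call under both, and Samhd1 passed under the chromosome medians. The cause was not tested.

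Libraries with the same replicate number shared little deviation from their group means (correlations -0.0425, -0.0179 and 0.0228). The labels state no pairing, and these values cannot show whether such libraries were prepared together. With the replicate block 32 members rose and 6 fell, with 3848 genes higher and 3679 lower, and Mx2 passed as higher (0.29, adjusted p = 0.0462), as it did without the filter on low counts (0.0489). At this depth the members under 2 CPM, Ifit3b, Gbp2 and Ifi44, have wide errors, and Ifi44 and Herc6 had no value under the FPKM filter. On log2(FPKM + 1) changes of low genes shrink by construction: Slfn5 was at 1.06 and Mx1 at -0.59.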
